A study of Oreochromis niloticus with 24 samples.

Results

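Genes of sex steroid receptors, 5 in all, were followed in sorted gonadotrophs of Nile tilapia (Oreochromis niloticus): esr2 (an oestrogen receptor beta), pgr (the progesterone receptor), and the androgen receptor genes ara, ar and LOC112841613, which the study's annotation calls androgen receptor-like. The members were chosen by name, with earlier results of these data known. All 5 were present in the female table of 1849 genes. The male table of 2392 genes held 4 of them, and ara in males is not analysed here. The tables together hold 2932 genes, 1309 of them in both sexes.

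The samples were sexually mature fish of the Lake Manzala strain that carried both an LH:RFP and an FSH:GFP transgene, which mark LH cells with red and FSH cells with green fluorescent protein. Dissociated pituitaries were sorted by fluorescence into LH cells (RFP-positive), FSH cells (GFP-positive) and negative cells (non-fluorescent, that is, the remaining pituitary cells), separately in males and in females. The labels give a pool of 20 pituitaries for each sort and 4 sorts per sex, so that each of 6 groups has 4 libraries and 24 libraries were used. The study's text reports pools of varying size, so not every pool held 20. All fish came from a single tank, and the pooled animals of a sort cannot be told apart.

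The gonadotropins of the pituitary are LH (luteinizing hormone) and FSH (follicle-stimulating hormone), which separate cells make in tilapia. The gonads answer them with oestrogens, androgens and progestins, which act back on brain and pituitary. The nuclear receptors for these steroids are transcription factors that bind DNA once the hormone is bound, so a cell that makes the receptor can respond to the steroid directly. Teleost fish hold more copies of several of these receptors than mammals, since the whole genome was duplicated in their ancestry.

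Expression is given in normalized reads (NR): each library's read number for a gene, scaled by that library's size factor. The library depth on the tables' genes ranged from 69091 to 2004647 reads, and 3 reads, taken as the limit of detection, were worth 1.22 to 7.21 NR. This limit covers counting error only. The NR of different genes are not divided by gene length, so levels are compared between groups within a gene and not between genes. Because the tables were normalized separately for males and females, only fold changes are compared between the sexes. In these bulk libraries fewer cells of a type and less RNA per cell cannot be told apart. Fold changes and adjusted p-values come from limma on log2(NR + 1) with Benjamini-Hochberg (BH) adjustment over all genes of the table, and a gene is called where its log2(fold change) passes 1 in either direction with an adjusted p under 0.05.

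The sorts were checked by the hormone genes lhb, fshb and cga. Of 9 pituitary hormone patterns only these 3 genes were found in each table, and gh, prl, tshb, pomc and sl were absent. Other hormone cells in the sorted fractions could therefore not be checked here. The study reports low positive fold changes of pomc and sl in LH over negative cells. It names small contamination or expression in LH cells as possible reasons, which was not tested here. In males the lhb gene (LOC100534501) stood in FSH cells at 0.359% and in negative cells at 0.278% of its mean level in LH cells, and in females at 0.956% and 0.563%. The fshb gene stood in LH cells at 0.398% of its mean in FSH cells in males and at 0.109% in females. The gene cga encodes the alpha subunit that LH, FSH and thyroid-stimulating hormone share. In LH cells it stood at 25.3% of its mean in FSH cells in males and at 10.1% in females. Negative cells held 18.6% of its mean in LH cells in males and 74.3% in females. Female LH and negative libraries overlapped in cga, which was not called there (log2(fold change) 0.45 ± 0.31, limma, BH-adjusted p = 0.266). Male LH replicate 1 stood apart in lhb, with 10131 NR against 3970 to 4353 NR in the other male LH libraries, and it held the highest value of the 4 male LH libraries for 47.1% of the genes of the table. Of 10 macrophage marker patterns, 6 genes were found in the female table and 0 in the male table. Their summed level was 5588 to 12987 NR in female LH cells, 669 to 1315 NR in female FSH cells and 2709 to 4439 NR in female negative cells. Most of this sum came from cd74 and cd74b (LOC100706178), which averaged 5599 and 4194 NR in LH and 770 and 217 NR in FSH cells. In FSH cells spi1a (LOC100692791), marco and c1qb (LOC100693084) averaged only 0.45, 0.89 and 0.29 NR, and csf1r was at 0 in the 4 libraries. All 6 were called higher in female LH than in FSH cells. Female LH replicate 2 had the least csf1r of its group, 104 NR against 359 to 498 NR in the other female LH libraries. Of 9 vessel wall patterns 1 gene was found per table: cdh5 (LOC100711438) had 25.7 to 43.7 NR in male LH, 6.14 to 14.0 NR in male FSH and 8.97 to 26.8 NR in male negative cells, and kdrl (LOC100707615) had 26.9 to 178 NR in female LH, 0 to 16.3 NR in female FSH and 16.4 to 53.8 NR in female negative cells. The part of these cells in the LH values was not tested. Each table lists only genes that the authors found enriched over negative cells in that sex. The absence of macrophage genes from the male table therefore does not show that the male libraries were free of macrophages.

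**Figure D1:**
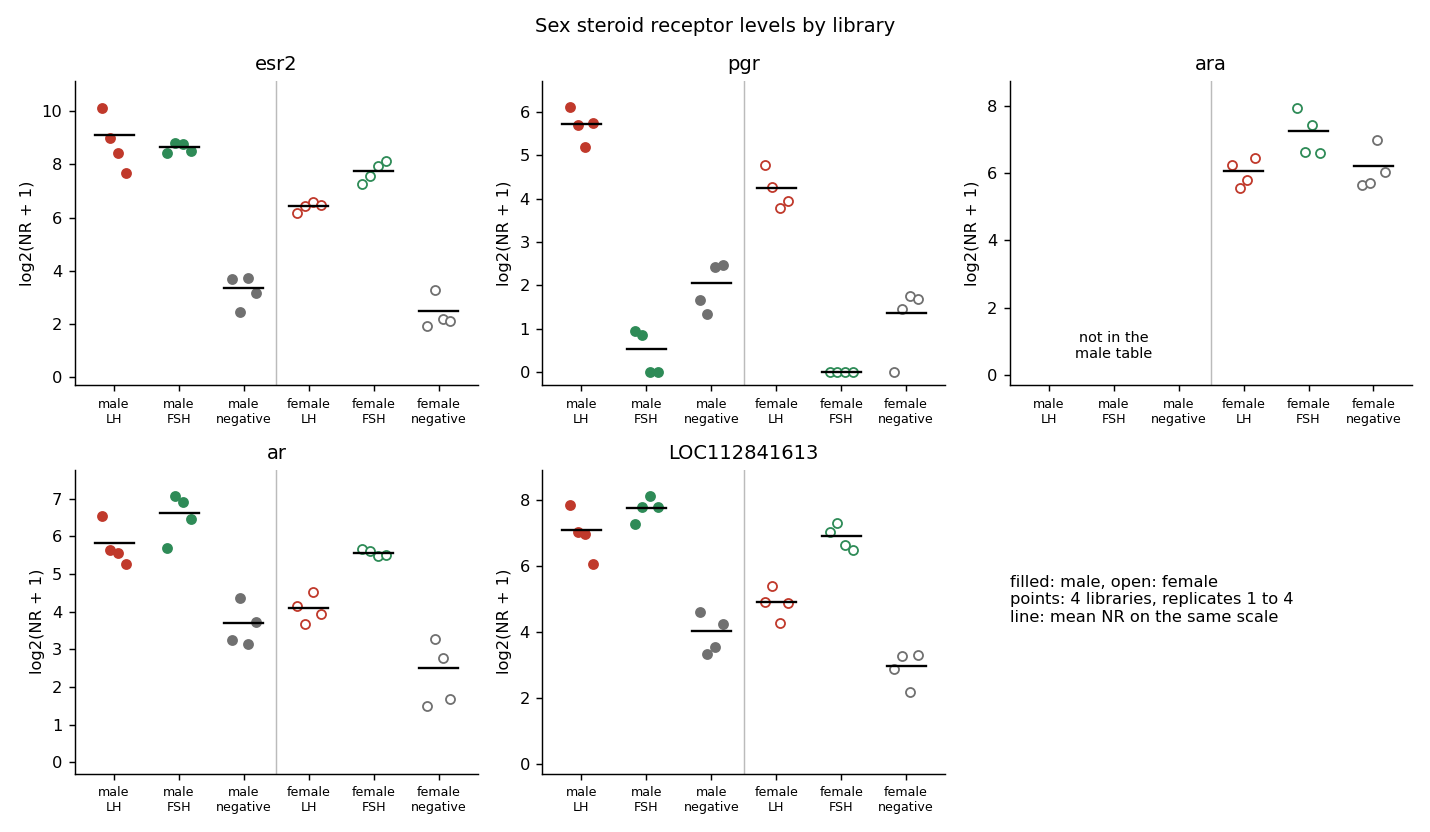
Level of each receptor gene in each library, as log2(NR + 1), in LH, FSH and negative cells of males (filled) and females (open). Points are the 4 libraries of a group and lines are the log2 of the group's mean NR + 1. esr2, ar and LOC112841613 were high in both gonadotrophs, pgr was at or near 0 in FSH cells, and ara in females lay in a similar range in LH and negative cells.

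The gene named esr2 carries, in the study's annotation, the gene number of esr2b in the RefSeq annotation of O_niloticus_UMD_NMBU, on linkage group 19 from 5694519 to 5760876. The symbol esr2 is a synonym of both esr2a and esr2b there, so the row is taken as esr2b by its number. It spans 66358 bp and overlaps 2 other protein-coding genes, LOC100699408 and LOC112843164. Whether the counting used the strand is not given in the sources used here. The overlap is of whole gene spans, and exons were not compared. Whether reads of these neighbours were counted for esr2 is therefore not known. The same holds for pgr on linkage group 14 (32259049 to 32265247), which overlaps arhgap42b, and for ar on linkage group 10 (7061998 to 7100541), which overlaps mlxipl and the long non-coding RNA LOC112848025. None of these neighbours is a row of either table. No annotated gene overlaps ara on linkage group 2 (31092898 to 31102732) or LOC112841613 on linkage group 10 (6013310 to 6032105). The genes ar and LOC112841613 lie 1029892 bp apart on that linkage group, with 45 genes between them. The study kept uniquely mapped reads, so reads that fit more than 1 androgen receptor copy equally well would not be counted for any of them, and levels of the copies are uncertain to that extent.

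Oestrogen receptor esr2 was abundant in both gonadotrophs and low in the rest of the pituitary. In males it had 1118, 515, 342 and 205 NR in the LH libraries, 346, 447, 440 and 365 NR in the FSH libraries, and 11.8, 4.52, 12.3 and 7.85 NR in the negative libraries. Every gonadotroph library lay above every negative library, while the LH and FSH libraries overlapped. The spread was unequal: the highest male LH library had 5.47 times the lowest, and the highest male FSH library 1.29 times the lowest. Against negative cells esr2 was higher by a log2(fold change) of 5.56 ± 0.40 (SE) in LH cells (limma, BH-adjusted p = 1.05e-07) and of 5.38 ± 0.40 in FSH cells (adjusted p = 1.60e-08), which made it the 2nd and the 6th largest of the 2392 fold changes. These comparisons share their negative libraries, and the tables hold only genes that the authors found enriched over negative cells. A high fold change there is therefore partly a condition of being listed. The same holds for the low p-values of higher levels over negative cells, for every receptor and in both sexes. In LH against FSH cells it holds in part for genes listed through only 1 of these cell types. The BH adjustment covers the listed genes only.

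In females esr2 had 71.3, 85.3, 94.7 and 88.3 NR in LH cells, 155, 189, 245 and 279 NR in the FSH libraries, and 2.74, 8.75, 3.53 and 3.30 NR in negative cells. Here the 3 fractions did not overlap, with FSH cells highest and negative cells lowest. The log2(fold change) over negative cells was 4.05 ± 0.30 in LH cells (limma, BH-adjusted p = 2.33e-08), the 3rd largest of the table, and 5.36 ± 0.30 in FSH cells (adjusted p = 1.50e-11), the 8th largest. Only 14 reads in all lay behind the 4 negative libraries, against 320 in LH and 793 in FSH cells. On the reads alone the ratio to negative cells was 20.2 in LH cells (95% exact interval 11.9 to 37.4) and 51.0 in FSH cells (30.2 to 93.7), intervals that cover counting error only.

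The direct comparison of the gonadotrophs differed in its outcome between the sexes. In females esr2 was lower in LH than in FSH cells, with a mean of 84.9 ± 9.87 NR in LH cells against 217 ± 55.6 NR in FSH cells (SD, n = 4 each) and a log2(fold change) of -1.31 ± 0.30 (limma, BH-adjusted p = 5.55e-04). In males LH cells averaged 545 ± 403 NR and FSH cells 399 ± 51.4 NR, the log2(fold change) was 0.17 ± 0.40 (adjusted p = 0.715), and its 95% interval ran from -0.68 to 1.03. Without male LH replicate 1 the male value was -0.26 (adjusted p = 0.499), so its sign rests on that library. The difference between the sexes is tested further on. In LH against FSH cells the median log2(fold change) over all genes was -0.96 in females and -0.54 in males.

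The progesterone receptor pgr was detected in LH cells, was low in negative cells and was at or near 0 in FSH cells. In male LH cells it had 67.6, 50.6, 35.4 and 52.7 NR, against 0.94, 0.82, 0 and 0 NR in FSH cells and 2.14, 1.51, 4.39 and 4.49 NR in negative cells. The FSH values amount to 3 reads in 4 libraries, the negative values to 12 reads and the LH values to 154 reads. In female LH cells it had 26.2, 18.4, 12.8 and 14.3 NR (74 reads), against 0 NR in all 4 FSH libraries and 0, 1.75, 2.35 and 2.20 NR (5 reads) in negative cells. In both sexes every LH library lay above every FSH and every negative library. The nuclear receptor pgr is needed for ovulation in fish, and here its level separated LH from FSH cells in each sex.

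Between the gonadotrophs pgr was called higher in LH cells of males (log2(fold change) 5.23 ± 0.46, limma, BH-adjusted p = 1.34e-07) and in females (4.19 ± 0.51, adjusted p = 5.10e-07). The size of such a fold change depends on the pseudocount, and over all alternatives it ran from 3.35 to 6.49 in males and from 2.16 to 7.09 in females. On the reads, the male LH level was 85.8 times the FSH level (95% exact interval 28.8 to 421). In females the FSH libraries held no read, and the mean LH level of 17.9 NR was at least 4.62-fold higher than the mean of 3 reads per FSH library (3.88 NR). On the reads, the 95% exact interval of the female LH to FSH ratio started at 19.2 and had no upper limit. Like the male interval, it covers counting error only. Only in LH cells was pgr called higher than in negative cells, so its listing rests on them. The high LH values, and with them the low p-values in LH against FSH cells, are therefore partly a condition of being listed.

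Against negative cells, pgr was higher in LH cells by a log2(fold change) of 3.71 ± 0.46 in males (limma, BH-adjusted p = 1.12e-05) and of 2.97 ± 0.51 in females (adjusted p = 5.33e-04). On the reads this is a ratio of 15.1 in males (95% exact interval 8.38 to 29.8) and of 13.1 in females (5.36 to 41.5). In FSH cells pgr was called lower than in negative cells, by -1.51 ± 0.46 in males (adjusted p = 5.73e-03) and by -1.22 ± 0.51 in females (adjusted p = 0.0305). Few reads carry these last calls: in males 3 reads in FSH against 12 in negative cells, and in females 0 against 5, where both fractions are at or under the limit of detection in every library. With the replicate block the female value was no longer called (adjusted p = 0.0527), nor with a pseudocount of 5, nor without any of the negative replicates 2, 3 or 4 (adjusted p 0.0605 to 0.0797) or FSH replicates 1 or 2 (0.0518 and 0.0562), nor without sort 2 (0.0839), sort 3 (0.11) or sort 4 (0.137). The male call was lost with a pseudocount of 5 (adjusted p = 0.0563), without sort 3 (0.0512) and without sort 4 (0.0585).

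Androgen receptor ar was higher in gonadotrophs than in negative cells, and higher in FSH than in LH cells of females. In males it had 91.7, 49.2, 45.8 and 37.6 NR in LH cells, 50.5, 133, 120 and 87.5 NR in the FSH libraries, and 8.57, 19.6, 7.91 and 12.3 NR in negative cells. In females it had 16.7, 11.8, 21.9 and 14.3 NR in LH cells, 49.9, 47.6, 43.2 and 44.4 NR in the FSH libraries, and 1.83, 8.75, 5.88 and 2.20 NR in negative cells. The female fractions were separate from each other throughout, whereas the male LH and FSH libraries overlapped. Over negative cells the log2(fold change) was 2.12 ± 0.38 in male LH (limma, BH-adjusted p = 2.06e-04) and 2.91 ± 0.38 in male FSH cells (adjusted p = 3.48e-06). In females it was 1.76 ± 0.40 in LH (adjusted p = 2.82e-03) and 3.25 ± 0.40 in FSH cells (adjusted p = 6.03e-07).

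The androgen receptor-like gene LOC112841613 followed the same order. In males it had 228, 129, 124 and 65.2 NR in LH cells, 155, 222, 275 and 219 NR in the FSH libraries, and 23.6, 9.05, 10.5 and 17.9 NR in negative cells. In females it had 29.1, 40.7, 18.2 and 28.6 NR in LH cells, 130, 158, 98.5 and 88.7 NR in the FSH libraries, and 6.39, 8.75, 3.53 and 8.79 NR in negative cells. As for ar, the female fractions did not overlap and the male LH and FSH libraries did, through the highest LH library. Over negative cells its log2(fold change) was 3.04 ± 0.36 in male LH (limma, BH-adjusted p = 8.96e-06) and 3.82 ± 0.36 in male FSH cells (adjusted p = 1.64e-07), and 1.95 ± 0.33 in female LH (adjusted p = 4.81e-04) and 3.96 ± 0.33 in female FSH cells (adjusted p = 3.98e-09).

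Between LH and FSH cells, ar and LOC112841613 were both called lower in LH cells of females, by -1.49 ± 0.40 (limma, BH-adjusted p = 1.99e-03) and -2.01 ± 0.33 (adjusted p = 1.99e-05). The female median over all genes was -0.96 and the male median -0.54. In males the values were -0.78 ± 0.38 for ar (adjusted p = 0.0831, 95% interval -1.58 to 0.01) and -0.77 ± 0.36 for LOC112841613 (adjusted p = 0.0755, interval -1.54 to -0.01), neither of them called. The female calls held in all 24 refits, whereas the male outcomes depended on single sorts or libraries. Without sort 1 the male values were -1.33 for ar (limma, BH-adjusted p = 5.03e-03) and -1.22 for LOC112841613 (adjusted p = 6.55e-03). Without male LH replicate 1 ar reached -1.05 (adjusted p = 0.0254) and LOC112841613 -1.07 (adjusted p = 0.0158), both past the threshold. Without male FSH replicate 1, the lowest FSH library for both genes, ar was also called (-1.07, adjusted p = 0.0241).

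The gene ara, whose product is the androgen receptor alpha, was not called in LH over negative cells and was higher in FSH cells. In females it had 74.3, 45.9, 54.7 and 85.7 NR in LH cells, 244, 97.5, 171 and 95.1 NR in the FSH libraries, and 49.3, 50.8, 126 and 63.7 NR in negative cells. The LH and negative libraries overlapped, with negative replicate 3 above every LH library, and every FSH library was above every LH library, but 1 negative library lay within the FSH range. The log2(fold change) was -0.08 ± 0.33 in LH over negative cells (limma, BH-adjusted p = 0.871), with a 95% interval from -0.77 to 0.61, and 1.05 ± 0.33 in FSH over negative cells (adjusted p = 5.78e-03). In LH against FSH cells it was -1.14 ± 0.33 (adjusted p = 3.81e-03), beside a median of -0.96 over all genes. Only in FSH cells was ara called higher than in negative cells, so its listing rests on them. The low p-value in LH against FSH cells is therefore partly a condition of being listed.

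Both ara calls lie close to the fold change limit. In FSH over negative cells the value was 0.79 without FSH replicate 1, 0.96 without FSH replicate 3, 0.91 without negative replicate 1 and 0.92 without negative replicate 2, each below the limit with an adjusted p of 0.0198 to 0.0329, and it was 0.64 without sort 1 (adjusted p = 0.105). In LH against FSH cells it was -0.87 without FSH replicate 1, -0.98 without LH replicate 2, -0.95 without sort 1 and -0.97 without sort 3, with adjusted p-values of 0.0159 to 0.0260. The negative fraction held 47.7% of the mean FSH level of ara, against 10.1% for ar and 5.78% for LOC112841613 in the same female libraries.

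**Figure D2:**
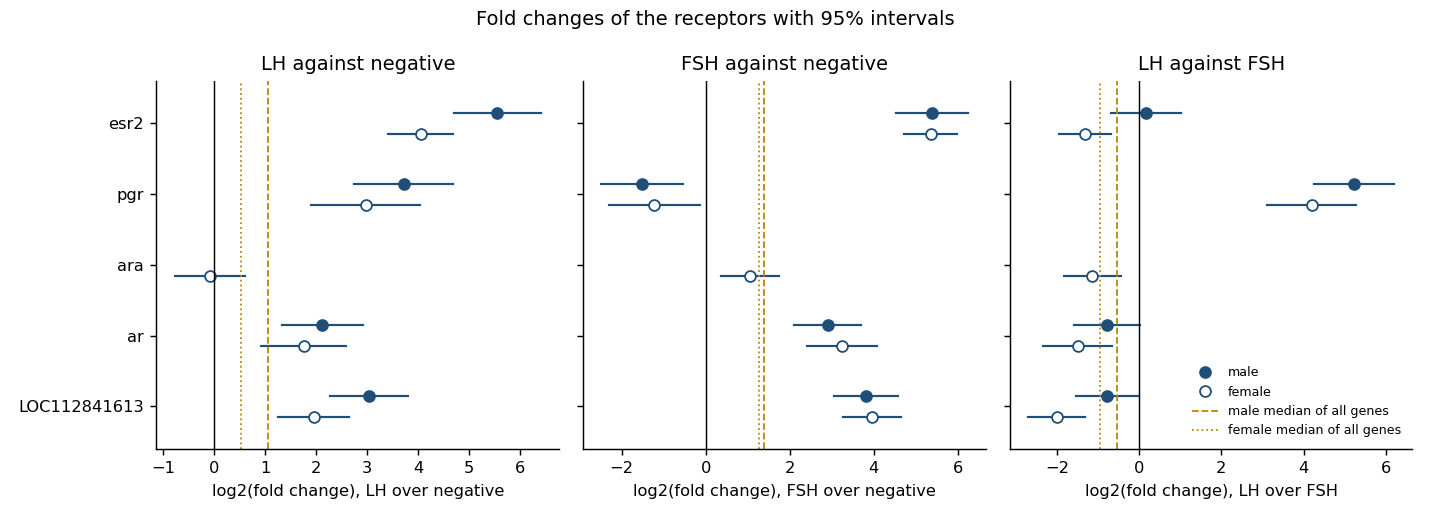
log2(fold change) of each receptor gene (points) with its 95% interval (lines) for LH over negative, FSH over negative and LH over FSH cells, males filled and females open, with vertical gold lines at the median of all genes of each table. pgr stands to the right in LH over FSH cells in both sexes, at 5.23 in males and 4.19 in females, and the female esr2, ar, ara and LOC112841613 values lie between -2.01 and -1.14.

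Counted over the members, limma called 4 of 4 higher in male LH than in negative cells, where 51.2% of all genes of the table were called higher, and 3 of 4 higher in male FSH cells, where 75.8% were. In females 4 of 5 were called higher in LH cells (28.5% of all genes) and 4 of 5 in FSH cells (69.7% of all genes). The remaining member in FSH cells was pgr, called lower in both sexes, as were 7.53% of male and 18.8% of female genes. Because the tables were built from enriched genes, these backgrounds are high, and the counts in FSH cells lie near them. In LH against FSH cells 1 of 4 members was called higher in LH cells of males (14.9% of all genes) and 0 of 4 lower (25.6% of all genes). At an unadjusted p below 0.05, which 63.5% of all genes reached in either direction, LOC112841613 was lower. By edgeR and by DESeq2 the males also had 1 call. Of all 2392 genes edgeR called 370 higher and 619 lower there, and DESeq2 370 and 626. In females 1 of 5 was called higher in LH cells (24.5% of all genes) and 4 of 5 lower (47.6% of all genes). The median log2(fold change) of the members was 3.38 in male LH and 3.36 in male FSH over negative cells, beside 1.05 and 1.39 over all genes. In females it was 1.95 in LH and 3.25 in FSH over negative cells, beside 0.52 and 1.26. In LH against FSH cells it was -0.30 in males and -1.31 in females, beside -0.54 and -0.96 over all genes. Since the members were chosen with earlier results of these data known, these medians are descriptions and test nothing about the receptors as a group.

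The members were also compared within each library, where the size factor cancels and the ratio of the reads of 2 genes can be set against the same ratio in another fraction. In males the ratio of esr2 to LOC112841613 reads ran from 2.76 to 4.89 in LH cells, from 1.60 to 2.23 in FSH cells and from 0.44 to 1.17 in negative cells, with no overlap between the fractions. The highest of these ratios was that of male LH replicate 1, and the other LH libraries also lay above every FSH library. In females the ratio ran from 2.10 to 5.20 in LH, from 1.19 to 3.14 in FSH and from 0.38 to 1.00 in negative cells, so that LH and FSH cells overlapped and both stayed above negative cells. The female negative ratios rest on 14 reads of esr2 and 23 reads of LOC112841613 in all. The ratio of esr2 to ar reads ran from 5.43 to 12.2 in male LH, from 3.37 to 6.85 in male FSH and from 0.23 to 1.56 in male negative cells, and from 4.26 to 7.22 in female LH, from 3.10 to 6.29 in female FSH and from 0.6 to 1.5 in female negative cells. For this pair the LH and FSH libraries overlapped in both sexes, and both gonadotrophs lay above negative cells.

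The androgen receptor pair on linkage group 10 showed no such order. The ratio of LOC112841613 to ar reads ran from 1.73 to 2.70 in male LH, from 1.67 to 3.07 in male FSH and from 0.46 to 2.75 in male negative cells. In females it ran from 0.83 to 3.44 in LH, from 2.00 to 3.32 in FSH and from 0.60 to 4.00 in negative cells. All fractions overlapped, and the female negative ratios rest on 23 reads of LOC112841613 and 14 reads of ar in all. The ratio of ara to LOC112841613 reads, in females, ran from 1.13 to 3.00 in LH, from 0.62 to 1.88 in FSH and from 5.80 to 35.7 in negative cells, so that every negative library lay above every gonadotroph library. The ratio of ara to ar reads ran from 2.5 to 6.0 in LH, from 2.05 to 4.89 in FSH and from 5.80 to 29.0 in negative cells, where the lowest negative library lay below the highest LH library.

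**Figure D3:**
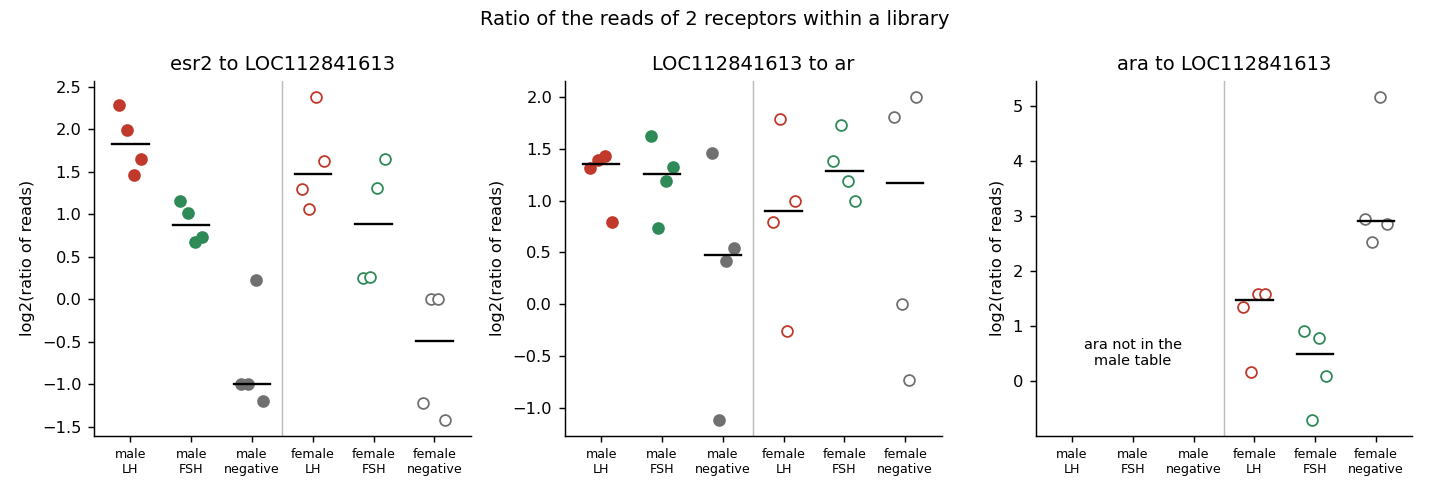
Ratio of the reads of a pair of receptor genes within each library, on a log2 axis, in LH, FSH and negative cells of males (filled) and females (open), with lines at the group median. The male esr2 to LOC112841613 ratios do not overlap between fractions, the LOC112841613 to ar ratios overlap throughout, and the ara to LOC112841613 ratio is highest in female negative cells, at 5.80 to 35.7.

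No receptor was called different between males and females by the interaction test. For a sex difference a call needed only an adjusted p under 0.05, without a limit on its size. The BH adjustment there covered the 1309 shared genes. Over the 1309 shared genes, limma called a sex difference in the LH over negative fold change for 12.8% of genes and for 0 of 4 members, in the FSH over negative fold change for 1.38% of genes and 0 of 4 members, and in the LH over FSH fold change for 0.306% of genes and 0 of 4 members. At an unadjusted p below 0.05 there were 2 members (esr2 and LOC112841613) in the LH over negative comparison, where 28.9% of all shared genes were, 0 in the FSH over negative comparison (17.3%) and the same 2 in the LH over FSH comparison (12.1%). By edgeR and by DESeq2 the counts of called members were 0 in each comparison. In LH over negative cells edgeR called 149 of all shared genes higher and 4 lower in males, and DESeq2 189 and 5. In FSH over negative cells they called 13 and 3, and 45 and 4. In LH over FSH cells each called 3 and 1.

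Each sex had its own sorts, and the study reports more reads per library in males on average. Sex therefore cannot be told apart from sort and depth in these differences. The closest to the threshold was esr2. Its log2(fold change) in LH over negative cells was larger in males than in females by 1.51 ± 0.52 (95% interval 0.44 to 2.57, limma, BH-adjusted p = 0.0520). It was called with the replicate block (adjusted p = 0.0325), with a pseudocount of 5 (0.0124) and without any of male LH replicate 3 (0.0447), male LH replicate 4 (0.0111), male negative replicate 1 (0.0385), female negative replicate 1 (0.0378) or sort 4 of both sexes (0.0317), and it was 1.07 (0.145) without male LH replicate 1. The corresponding difference for LOC112841613 was 1.09 ± 0.50 (adjusted p = 0.147), called only without male LH replicate 4 (1.40, adjusted p = 0.0467). The median male minus female difference of all shared genes in LH over negative cells was 0.53, with 163 genes called higher and 4 called lower in males. Relative to that median esr2 stood at 0.98 (adjusted p = 0.498) and LOC112841613 at 0.56 (adjusted p = 0.754).

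For the other differences between the sexes the intervals were wide. In LH over FSH cells the male minus female difference was 1.49 ± 0.52 for esr2 (adjusted p = 0.284), 1.23 ± 0.50 for LOC112841613 (adjusted p = 0.344), 1.04 ± 0.66 for pgr (adjusted p = 0.542) and 0.71 ± 0.56 for ar (adjusted p = 0.611), beside a median of 0.28 over all shared genes. In FSH over negative cells the values lay between -0.34 for ar and 0.02 for esr2, and the 95% interval of esr2 there ran from -1.05 to 1.08.

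**Figure D4:**
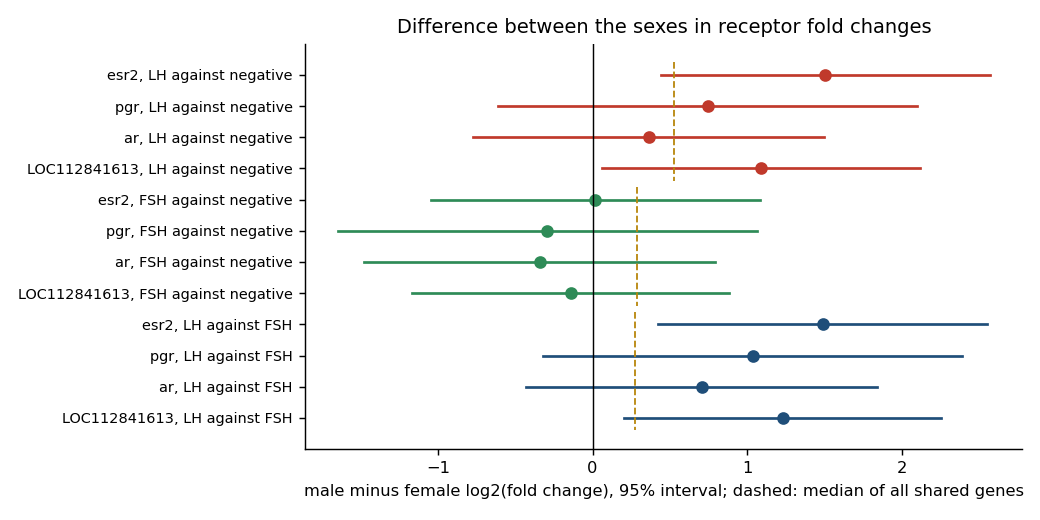
Male minus female difference in log2(fold change) of the 4 receptors found in both tables (points) with 95% intervals (lines), for LH over negative, FSH over negative and LH over FSH cells. Dashed lines are the medians of the 1309 shared genes, at 0.53, 0.29 and 0.28. The LH over negative value of esr2, 1.51, is the furthest from 0.

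The other genes of the steroid pathway were taken from 34 patterns (other steroid nuclear receptors, membrane steroid receptors, co-regulators, receptor chaperones, and steroid synthesis and metabolism), by which 6 genes were found in each table. The patterns were matched to row names and RefSeq symbols and not to gene products. LOC100690064, whose only symbol is its number, could be matched by that number alone. In males 3 of the 6 were called higher in LH (51.2% of all genes) and 5 in FSH (75.8%) than in negative cells, and in LH against FSH cells 1 was called higher (14.9%) and 2 lower (25.6%). In females 1 was called higher in LH than in negative cells (28.5% of all genes), 4 were called higher (69.7%) and 1 lower (18.8%) in FSH than in negative cells, and in LH against FSH cells 2 were called higher (24.5%) and 2 lower (47.6%). No membrane steroid receptor or receptor chaperone of the lists was found by name or symbol in either table, and genes without such a symbol would have been missed.

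Brain aromatase cyp19a1b (LOC100534396), the enzyme that makes oestrogens from androgens, was higher in LH than in FSH cells in both sexes. In males it had 463, 499, 849 and 311 NR in LH cells, against 86.1, 50.6, 50.4 and 37.2 NR in FSH cells, a log2(fold change) of 3.19 ± 0.32 (limma, BH-adjusted p = 6.40e-07). In females it had 197, 287, 124 and 162 NR in LH cells, against 40.0, 41.8, 38.4 and 29.9 NR in FSH cells, a log2(fold change) of 2.27 ± 0.25 (adjusted p = 1.06e-07). LH and FSH libraries did not overlap in either sex. Over negative cells, LH cells were called higher in males (2.25 ± 0.32, adjusted p = 3.74e-05) but not in females (0.996 ± 0.25, adjusted p = 4.79e-03). FSH cells were called lower than negative cells in females (-1.28 ± 0.25, adjusted p = 1.02e-04). In males they were not called (-0.94 ± 0.32, adjusted p = 0.0125), and the FSH and negative libraries overlapped.

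The oestrogen-related receptor LOC100690064 (steroid hormone receptor ERR2 in the study's annotation), an orphan receptor that is not known to bind oestrogens, went the other way. It had 46.6, 44.9, 35.4 and 26.4 NR in male LH cells against 233, 261, 335 and 276 NR in male FSH cells (log2(fold change) -2.84 ± 0.28, limma, BH-adjusted p = 4.20e-07). In female LH cells it had 7.28, 10.5, 14.6 and 5.04 NR against 153, 203, 195 and 147 NR in FSH cells (-4.16 ± 0.42, adjusted p = 3.55e-08). A hydroxysteroid dehydrogenase listed as hsd17b12, which the RefSeq table names hsd20b2, was also lower in LH than in FSH cells, by -1.13 ± 0.30 in males (adjusted p = 4.73e-03) and -1.54 ± 0.38 in females (adjusted p = 1.05e-03).

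Another oestrogen-related receptor, esrrg, was in the female table only, with 34.2, 7.87, 52.8 and 32.8 NR in LH cells against 7.73, 9.29, 9.61 and 9.96 NR in FSH cells (log2(fold change) 1.44 ± 0.44, limma, BH-adjusted p = 5.47e-03). The female LH library with the low esrrg value, replicate 2, is also the one with the least csf1r, and the part of macrophages in the esrrg level was not tested. The glucocorticoid receptor nr3c1 (LOC100534398, males) and the co-activators and co-repressor ncoa1, ncoa7b (LOC100710064, males) and nrip1 (females) were lower in LH than in FSH cells without overlap of the libraries (limma, BH-adjusted p 8.44e-05 to 0.0185). Their log2(fold change) values, from -0.96 to -0.65, did not reach the limit for a call. The medians over all genes were -0.54 in males and -0.96 in females, so lower values in LH cells were common in both tables.

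**Figure D5:**
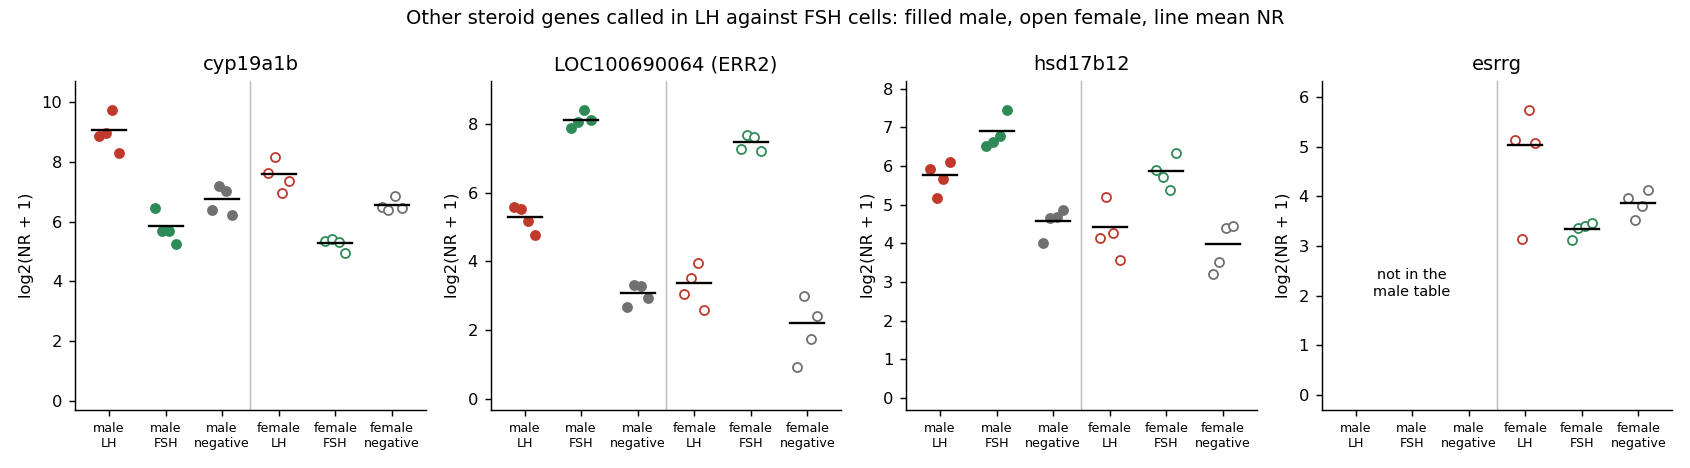
Level of the other steroid genes called between LH and FSH cells, as log2(NR + 1) per library, males filled and females open, with lines at the log2 of the group's mean NR + 1. cyp19a1b is highest in LH cells and LOC100690064 (ERR2) highest in FSH cells in both sexes, and esrrg was listed for females only.

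The genes whose profile was most like that of each receptor were found by the root mean square difference of log2(NR + 1), centred per gene, over the 12 libraries of a sex, among 2319 male and 1713 or 1714 female genes with a mean of at least 10 NR. For male esr2 they were apln, which encodes the peptide hormone apelin (difference 0.68), LOC100695867 (ndst3, 0.69) and foxl2 (0.77), a transcription factor of gonadotrophs and ovary, beside a median difference of 2.20 over all candidates. LOC100695867 was also the nearest to esr2 in females (0.75), followed by otof (0.84) and LOC100690915 (0.85), beside a median of 1.95. For pgr the nearest were the potassium channel gene kcnj5 (0.63), LOC102083321 (0.66) and pkd1b (LOC100694735, 0.73) in males, and fgfr4 (LOC100692465, 0.72), LOC100711803 (0.74) and LOC100534508 (0.75) in females.

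For ar they were LOC100711672 (0.35) and LOC100698591 (0.37) in males and plch1 (LOC100703201, 0.38), LOC100534513 (0.40) and LOC100691206 (0.47) in females. For LOC112841613 they were clu (0.36), the receptor tyrosine kinase gene ret (0.37) and cplx1 (LOC100691349, 0.39) in males and nkx3.3 (LOC100705614, 0.39), plppr2a (LOC100704145, 0.44) and pcdh9 (LOC100693785, 0.44) in females. For female ara they were LOC112842423 (0.35), kiz (0.36) and LOC100708678 (0.37), of which kiz averaged 46.6 NR in LH, 97.1 NR in FSH and 48.4 NR in negative cells. Among the receptors themselves, the nearest pair was ar and LOC112841613, at 0.70 in males and 0.75 in females, where ar took place 75 among the genes most like LOC112841613 in males and place 43 in females, and LOC112841613 took places 319 and 87 among the genes most like ar. Among the genes most like esr2, LOC112841613 took place 16 in males and 10 in females, and ar place 95 in males and 12 in females. The farthest pair was esr2 and pgr, at 2.97 in males and 2.93 in females. These likenesses are descriptions over 12 libraries that share their sorts.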

How the data were processed

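The reads were trimmed with Trim Galore, mapped with STAR 2.201 to O_niloticus_UMD_NMBU and counted with HTSeq on known genes, per the labels and the study's methods. The authors deposited signal values, normalized reads obtained by dividing the reads of a gene by the DESeq2 size factor of the library (0.416 to 2.45), for genes they found enriched over negative cells in LH or FSH cells of a sex. Their tables of fold changes and p-values against negative cells were not used. Cells positive for both fluorescent proteins were not analysed here.

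In the male table each gene name stood 1 line below its values and was moved by 1 line. After the move the median difference between male and female profiles of the 1309 shared genes was 0.342, against 0.687 as deposited, and fshb in male FSH cells was 48574 instead of 177 NR. In every library 100% of the values were whole reads (within 0.1 read), so reads were recovered. On them edgeR called 370 genes higher and 619 lower in LH against FSH cells of males, and 453 higher and 904 lower in females (limma: 356 and 613, and 453 and 880). The chi-square per gene between replicates was 2.94 to 72.0, and none was treated as a repeat of another.

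Within each sex, log2(NR + 1) of 12 libraries was fitted with limma 3.58.1 (R 4.3.3) with a mean-variance trend, and sex differences as the interaction over all 24. Same-numbered fractions were sorted from 1 pool, per the series' design text. Their deviations correlated at -0.28 to 0.50 (median 0.14, over 0.1 in 15 of 24 pairs). The range was 0.008 to 0.50 in males and -0.28 to 0.18 in females, so a shared pool is not seen in every female pair. The main fits leave the sort out, and the fit with the replicate block is given where it changes a call. The limits of low reads are 95% exact (Clopper-Pearson) intervals. The alternatives were pseudocounts of 0.5 and 5, a mean of at least 10 NR, no trend, only the 2 fractions compared, edgeR 4.0.16 and DESeq2 1.42.0 on the recovered reads, and leaving out each sort or library. The tests were tested on simulated data. These had the same variation between replicates for every gene and no sort effect, so they do not cover the unequal spread of the real libraries. Named genes are all members, the other steroid genes of the lists found in the tables (with values for those called in LH against FSH cells), marker genes of the sorts and of macrophages and vessels, and the 3 genes most like each member in each sex, of which 1 is not reported here. The members and lists were chosen with earlier results of these data known. Names and positions came from the RefSeq annotation of the same assembly. Python 3.11.15 with pandas 2.3.3, scipy 1.17.1 and matplotlib 3.10.9 was used for tables and figures.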

Additional observations from a re-analysis of the deposited data

Results flagged for a closer look

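The groups of 4 libraries of the receptors, 26 in all, were searched with Dixon's 95% limit for a library far from its neighbours. The limit was passed in 1 group, esr2 in female negative cells, where replicate 2 had 8.75 NR (5 reads) against 2.74 to 3.53 NR (3 reads each) in the other libraries. Chance alone gives about 1 in 20 groups, and the difference is 2 reads.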

How the results depend on the processing

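Of 1077 refits of 39 receptor fold changes, 1012 kept their direction and their side of the threshold, and 23 of the 39 did so in all refits. Without single sorts or libraries the number of receptors called was 1 to 3 in male LH against FSH cells, 3 to 5 in female FSH against negative cells and 0 to 2 for the sex difference in LH over negative cells. Without male sort 1, with 3 called, 343 of 2392 genes were higher and 711 lower (main fit 356 and 613). Without female FSH replicate 1, with 3 called, 1255 of 1849 genes were higher and 342 lower (main fit 1289 and 347). The sex difference had 2 called without male LH replicate 4, where 216 of 1309 genes were higher in males and 6 lower (main fit 163 and 4). That sex difference was called for 1 receptor, esr2, with a pseudocount of 5 (189 genes higher in males and 3 lower) and with the replicate block (239 and 5). The replicate block also lost the call of pgr in female FSH against negative cells (-1.22) and changed no other call. Relative to the median of the shared genes, a setting chosen after seeing the data, the sex difference of ar in LH over negative cells was -0.17 and that of esr2 in FSH over negative cells -0.27.

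The values that changed sign were all uncalled. The sex difference in FSH over negative cells was, for esr2, -0.055 with a pseudocount of 0.5, -0.27 by edgeR and -0.27 by DESeq2, and -0.66 to 0.26 without single sorts or libraries. It was, for pgr, 1.34 by edgeR and 0.28 by DESeq2, and, with a pseudocount of 5, 0.086 for ar and 0.12 for LOC112841613. The sex difference of pgr in LH over FSH cells was -0.94 by edgeR. Without single sorts or libraries it ran, in FSH over negative cells, from -0.72 to 0.11 for pgr, from -0.82 to 0.12 for ar and from -0.34 to 0.30 for LOC112841613. The fold change of esr2 in male LH against FSH cells ran from -0.33 to 0.55 and that of ara in female LH against negative cells from -0.30 to 0.29. The cause was not tested. With a mean of at least 10 NR, pgr in females could not be fitted. Depth limited pgr in FSH and negative cells and esr2, ar and LOC112841613 in female negative cells, with 14, 14 and 23 reads in all.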
